A study of Homo sapiens with 12 samples.

Results

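Knockdown of PRMT1 in HEK293T cells was compared with a scramble hairpin by the splicing values of the deposited data. The measure was percent spliced in (PSI), the share of a gene's transcripts at 1 splicing event that carry the inclusive form, on a scale from 0 to 1. Members were chosen by completeness alone: a splicing event entered when it had a PSI in all 7 columns of the MISO table, the scramble column and 6 knockdown columns. This left 10358 of 16199 events, in 5006 gene symbols. They comprised 6050 exons that are included or skipped (cassette exons) and 1152 introns that are kept or removed. A further 1179 events were alternative 3′ and 1037 alternative 5′ splice sites, and 940 were pairs of exons used in place of each other.

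HEK293T is a human embryonic kidney line that carries the SV40 large T antigen. All lines were made with lentivirus and carried a hairpin stably: a scramble hairpin in 1 library, and hairpins sh1 and sh3 against PRMT1 in 2 libraries. The other 5 knockdown columns (PRMT3, PRMT4, PRMT5, PRMT6 and PRMT7) serve below as further measurements of the same events. The PRMT1 column is a single value per event, and how both hairpins entered it is not stated. There are thus no replicates, no SD and no test, read depth is unknown, and a difference is described by its size. Scramble had a value for 12217 events and PRMT1 knockdown for 12571. The level of PRMT1 and the markers of the cell line were not analysed here, and no complete event lay in PRMT1 itself.

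PRMT1 is the main enzyme that places asymmetric dimethylation on arginine, with S-adenosylmethionine as the methyl donor. Its best known substrates are RNA-binding proteins with arginine and glycine rich (RGG) stretches, among them EWSR1, hnRNP proteins and ATXN2L, besides arginine 3 of histone H4. Arginine methylation alters how such proteins bind RNA and each other and where in the cell they reside. Many of them take part in choosing splice sites, and splicing is among the processes the study's title ties to arginine methylation.

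The cassette exons below are shown because PRMT1 knockdown lay outside all the other columns there (ATXN2, DDHD1, MBD1, KDM6A, MTMR3). Capitals mark the alternative exon and lower case the 15 bases on each side in the spliced transcript, 5′ to 3′. Coordinates are GRCh37 as in the deposited files. The sequences were read from GENCODE 29 transcripts with an exon and both introns of identical length.
ATXN2 exon, chr12:111891481-111891649, minus strand: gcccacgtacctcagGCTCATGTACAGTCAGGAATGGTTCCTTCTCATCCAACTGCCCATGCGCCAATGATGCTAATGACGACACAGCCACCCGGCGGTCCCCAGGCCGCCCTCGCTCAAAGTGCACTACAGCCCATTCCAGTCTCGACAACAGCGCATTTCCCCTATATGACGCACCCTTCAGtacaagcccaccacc
DDHD1 exon, chr14:53518562-53518645, minus strand: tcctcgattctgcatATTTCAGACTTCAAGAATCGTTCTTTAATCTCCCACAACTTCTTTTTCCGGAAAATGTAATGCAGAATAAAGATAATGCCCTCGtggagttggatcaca
MBD1 exon, chr18:47799704-47799841, minus strand: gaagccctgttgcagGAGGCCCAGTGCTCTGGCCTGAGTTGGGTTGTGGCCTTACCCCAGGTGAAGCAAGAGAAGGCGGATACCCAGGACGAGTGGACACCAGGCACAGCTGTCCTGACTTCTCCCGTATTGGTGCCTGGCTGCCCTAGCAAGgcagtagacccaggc
KDM6A exon, chrX:44921892-44921993, plus strand: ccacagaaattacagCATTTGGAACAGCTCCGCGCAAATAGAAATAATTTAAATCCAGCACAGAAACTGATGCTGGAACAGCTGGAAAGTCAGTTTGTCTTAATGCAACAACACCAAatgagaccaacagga
MTMR3 exon, chr22:30419446-30419472, plus strand: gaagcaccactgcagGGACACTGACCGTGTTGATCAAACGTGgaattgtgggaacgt
In scramble and PRMT1 knockdown the PSI was 0.67 and 0.84 for the ATXN2 exon, 0.66 and 0.85 for DDHD1, 0.79 and 0.61 for MBD1, 0.29 and 0.60 for KDM6A, and 0.10 and 0.22 for MTMR3. The ATXN2 exon of 169 bases is not a multiple of 3, while the exons of DDHD1, MBD1, KDM6A and MTMR3 are.

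Most events had nearly the same PSI in both columns. In 64.0% of the 10358 events the values lay within 0.02 of each other, and the median difference was 0. An event is called differing here where the gap between both columns was 0.1 or more, with no test behind it. This held for 767 events (7.40% of all) in 668 gene symbols. Of these, 310 (2.99%) were higher in PRMT1 knockdown and 457 (4.41%) were lower. At the edge of the rule, 65 higher and 79 lower events stood at 0.10, and 69 higher and 98 lower events at 0.09. A difference of at least 0.2 was seen in 37 higher and 74 lower events. The largest higher event was an alternative 5′ splice site annotated to GCOM1 and POLR2M (chr15:57998571-57999153), with PSI 0.51 in scramble and 0.89 in PRMT1 knockdown. The largest lower event was a 5924-base cassette segment of SLC22A5, the cell's carnitine transporter, at 0.95 and 0.38. Neither was found in the PRMT1 column alone: PRMT4 knockdown stood at 0.91 for GCOM1 and at 0.20 for SLC22A5.

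**Figure D1:**
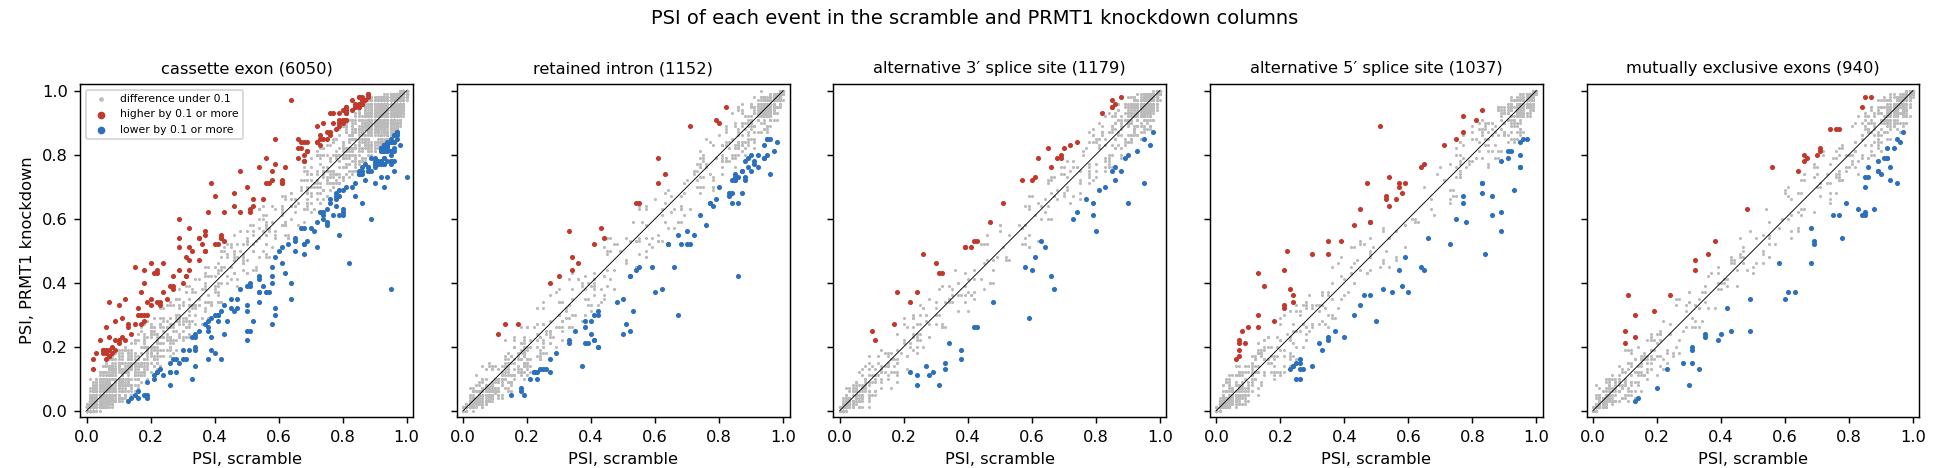
PSI of each complete event in the scramble column (x axis) and the PRMT1 knockdown column (y axis), 1 panel per event type with the number of events. Colours mark the 310 events higher and the 457 events lower by at least 0.1, and the points of retained introns past that size lie mostly below the diagonal.

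How often an event differed varied with its mean PSI over both columns. Among cassette exons with a mean of both columns from 0.3 to 0.7, 38.0% differed. This compares with 0.243% of those below 0.1 and 0.917% of those at 0.9 or above. Exons whose mean of both columns is near 0 or 1 have little room to differ by 0.1. The PRMT1 value enters both the mean and the difference, so this contrast follows in part from the grouping itself. How far the counts per gene group below follow the PSI of their events was not tested.

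Retained introns were the event type that leaned most to one side. Of 1152 introns, 120 differed (10.4%), and 99 of these (8.59% of the introns) were retained less in PRMT1 knockdown and 21 (1.82%) more. The share lower was 82.5% (95% exact Clopper-Pearson interval 74.5 to 88.8%, which covers counting over events only). Cassette exons were nearly balanced, with 387 differing (6.40%), 181 higher (2.99%) and 206 lower (3.40%). Alternative 3′ splice sites gave 78 (6.62%), 35 higher (2.97%) and 43 lower (3.65%). Alternative 5′ splice sites gave 102 (9.84%), 47 higher (4.53%) and 55 lower (5.30%). Mutually exclusive exons gave 80 (8.51%), 26 higher (2.77%) and 54 lower (5.74%), but which of both exons their PSI counts could not be settled from the table, so no direction is read from them. They are nevertheless part of the 310 higher and 457 lower events, and of the higher and lower counts per gene list and per gene below.

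The lower retention was not confined to 1 kind of intron. Introns of 201 to 500 bases differed in 42 of 334 cases, 6 higher and 36 lower, and those of 501 to 1000 bases in 21 of 230, 1 higher and 20 lower. Introns of 101 to 200 bases were closer to even, at 7 higher and 10 lower of 202. By annotation, introns within coding sequence gave 16 higher and 66 lower of 677, and introns within untranslated regions 2 higher and 15 lower of 189.

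PINK1, the kinase that marks damaged mitochondria for removal, had an intron (chr1:20975126-20975487) at PSI 0.37 in scramble and 0.14 in PRMT1 knockdown, with 0.13 to 0.28 in the other 5 knockdowns and -0.073 in the authors' deposited table. PIDD1, a death-domain adaptor that activates caspase-2, had an intron that stood at 0.60 in scramble, 0.37 in PRMT1 knockdown and 0.37 to 0.64 in the others. VIM, which encodes the intermediate filament vimentin, was at 0.66 and 0.45, with 0.36 to 0.47 in the others, but the authors' deposited table gave only -0.011. ACAA1, an enzyme of peroxisomal fatty acid oxidation, was at 0.52 and 0.25 for one intron, and all the other knockdowns lay at 0.22 to 0.28, with -0.041 in the authors' deposited table. A second ACAA1 intron, of 280 bases, was higher, at 0.13 and 0.27, and 0.12 to 0.24 in the others, with 0.026 in the authors' deposited table. For PINK1, VIM and the first ACAA1 intron scramble was thus the highest of the 7 columns. PINK1, PIDD1 and VIM were picked after their values were seen, and ACAA1 is among the 4 largest lower introns.

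The highest gain in retention was in CCDC142, a coiled-coil protein gene, where a 113-base intron stood at 0.33 in scramble, 0.56 in PRMT1 knockdown and 0.35 to 0.46 in the other 5. TRO, which encodes the adhesion protein trophinin, had a 2030-base intron at 0.71 and 0.89, with 0.73 to 0.81 in the others. In both genes the PRMT1 column was the highest of the 7.

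The other knockdowns share the same scramble column, so their counts are set beside these without a test. Retained introns lower and higher by at least 0.1 numbered 104 and 69 for PRMT3 knockdown, 114 and 22 for PRMT4, 101 and 44 for PRMT5, 130 and 16 for PRMT6, and 68 and 33 for PRMT7. More introns were lower than higher in every column. When the PRMT1 column was set against the average of the other 5 knockdowns in place of scramble, 52 introns differed, 35 lower and 17 higher. Over all types that reference gave 381 differing events (3.68%), 164 higher (1.58%) and 217 lower (2.09%).

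**Figure D2:**
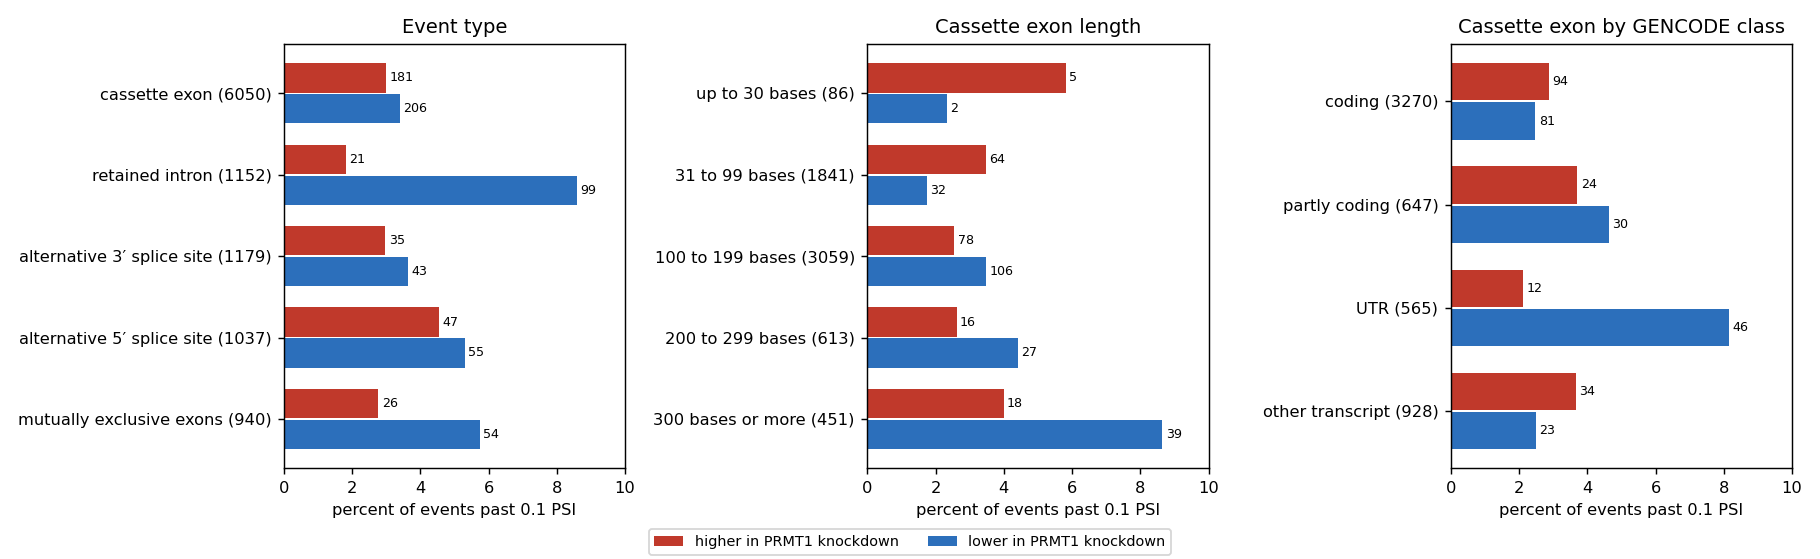
Percent of events higher (red) and lower (blue) by at least 0.1 PSI in PRMT1 knockdown than in scramble, with the number of such events at each bar and the number of events measured in brackets, by event type, cassette exon length and GENCODE class. Retained introns show 99 lower against 21 higher, exons of 31 to 99 bases 64 higher against 32 lower, and untranslated exons 46 lower against 12 higher.

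Among cassette exons the direction went with exon length, but longer exons also had a higher PSI. Mean PSI in scramble was 0.515 for 31 to 99 bases, 0.652 for 100 to 199 and 0.722 for 300 or more. By mean PSI of both columns, exons at 0.1 to 0.3 gave 48 higher and 36 lower. Those at 0.3 to 0.7 gave 65 and 76, at 0.7 to 0.9 48 and 82, and at 0.9 or above 18 and 10. Whether direction follows length apart from PSI was not tested. Exons of 31 to 99 bases differed in 96 of 1841 cases, 64 higher and 32 lower in PRMT1 knockdown. Exons of up to 30 bases gave 5 higher and 2 lower of 86. Exons of 100 to 199 bases gave 78 higher and 106 lower of 3059, and those of 300 bases or more 18 higher and 39 lower of 451. Relative to the average of the other 5 knockdowns, the exons of 31 to 99 bases gave 43 higher and 14 lower. In the same length class and against the same scramble column, PRMT3 knockdown had 49 higher and 116 lower, PRMT4 64 and 27, PRMT5 81 and 49, PRMT6 52 and 40, and PRMT7 35 and 56. Among these exons matched in the authors' deposited table of rMATS differences, the class of 31 to 99 bases did not lean as far. At a lower threshold of 0.05 it had 95 higher and 85 lower there. By the same count exons of up to 30 bases had 4 higher and 2 lower, and those of 100 to 199 bases 96 and 178. Exons of 200 to 299 bases had 22 and 36, and those of 300 or more 13 and 33. Exons whose length is a multiple of 3 gave 88 higher and 82 lower of 2519, and the others 93 higher and 124 lower of 3531.

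The exons of NDEL1, PLEKHM2 and EPB41 are shown as examples of short exons with a higher PSI in PRMT1 knockdown. NDEL1 and EPB41 were picked after their values were seen.
NDEL1 exon, chr17:8366638-8366672, plus strand: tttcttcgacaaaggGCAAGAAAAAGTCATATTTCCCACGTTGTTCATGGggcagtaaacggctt
PLEKHM2 exon, chr1:16047824-16047883, plus strand: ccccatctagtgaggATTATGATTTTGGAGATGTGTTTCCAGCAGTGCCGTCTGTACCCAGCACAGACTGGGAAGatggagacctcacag
EPB41 exon, chr1:29386934-29386996, plus strand: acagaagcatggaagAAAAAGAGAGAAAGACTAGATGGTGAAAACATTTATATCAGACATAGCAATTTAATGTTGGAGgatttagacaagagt
NDEL1, a dynein regulator at the centrosome, had PSI 0.20 in scramble, 0.46 in PRMT1 knockdown and, from PRMT3 to PRMT7 knockdown in order, 0.28, 0.27, 0.33, 0.40 and 0.33. The PRMT1 column was the highest and scramble the lowest, and the authors' deposited table gave a difference of 0.167. PLEKHM2, which links kinesin-1 to lysosomes, had 0.15 in scramble, 0.45 in PRMT1 and 0.29 to 0.45 in the other 5, where PRMT5 equalled PRMT1. The authors' deposited table gave 0.187 for PLEKHM2.

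EPB41, a protein of the red cell membrane skeleton, has a 63-base exon that completes its spectrin and actin binding domain and is known to be switched on as red cells mature. Its PSI was 0.67 in scramble, 0.82 in PRMT1 knockdown and, from PRMT3 to PRMT7 knockdown in order, 0.43, 0.85, 0.81, 0.76 and 0.74. PRMT4 was above PRMT1, and PRMT3 was the one knockdown below scramble. The authors' deposited table gave 0.191 for this exon. A second EPB41 exon, of 213 bases, was lower, at 0.96 in scramble and 0.75 in PRMT1 knockdown, with 0.76 to 0.87 in the others, but the authors' deposited table gave only -0.021.

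Short exons of MAPK6 and ARHGAP44, picked after their values were seen, had a still larger difference in the authors' deposited table. Of 91 matched differing exons of 31 to 99 bases, 79 lay on the same side of 0 there, and the rest did not. MAPK6, which encodes the atypical kinase ERK3, had an 80-base exon at PSI 0.02 in scramble, 0.16 in PRMT1 knockdown and 0.03 to 0.09 in the others, and the authors' deposited table gave 0.286. ARHGAP44 had a 52-base exon at 0.09 and 0.28, with 0.21 to 0.32 in the others, and the authors' deposited table gave 0.219. The MAPK6 exon was highest in the PRMT1 column, the ARHGAP44 exon in PRMT3.

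Cassette exons were placed on GENCODE 29 transcripts where the exon and both introns had identical lengths, which succeeded for 5413 of 6050 (89.5%). Exons within coding sequence differed in 175 of 3270 cases (5.35%), 94 higher and 81 lower. Exons within untranslated regions of protein-coding transcripts differed in 58 of 565 (10.3%), and 46 of those were lower in PRMT1 knockdown and 12 higher. Their mean PSI in scramble was 0.266, against 0.818 for coding exons, and among exons with a mean PSI between 0.1 and 0.9 the shares were closer, 30.1% against 24.6%. The share lower was 79.3% (95% exact Clopper-Pearson interval 66.6 to 88.8%). Of the lower untranslated exons with a matched event, 44 of 45 were also lower in the authors' deposited table. Of the higher ones with a match, 7 of 11 were also higher there. With the average of the other knockdowns as reference, 9 untranslated exons were higher and 10 lower. Against scramble, the untranslated exons higher and lower numbered 16 and 59 for PRMT3 knockdown, 21 and 31 for PRMT4, 34 and 29 for PRMT5, 16 and 30 for PRMT6, and 11 and 42 for PRMT7.

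WASF1, an activator of Arp2/3 driven actin assembly, had an untranslated 98-base exon at PSI 0.42 in scramble and 0.16 in PRMT1 knockdown, with 0.14 to 0.21 in all the other knockdowns, and the authors' deposited table gave -0.068. COPB2, a subunit of the COPI vesicle coat, had a 197-base exon at 0.58 and 0.27, with 0.32 to 0.47 in the others, while the authors' deposited table gave a much smaller -0.032. MTRF1, a mitochondrial translation release factor, had a 71-base exon at 0.31 and 0.16, with 0.07 to 0.22 in the others, and the authors' deposited table gave -0.318 for it. In these 3 genes scramble was the highest of the 7 columns. ZSCAN21, a zinc finger protein, had an untranslated 133-base exon that was higher, at 0.29 in scramble, 0.54 in PRMT1 knockdown and 0.40 to 0.50 in the others.

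Because every knockdown is read against 1 scramble library, events where PRMT1 knockdown lay outside all 6 other columns are described on their own. PRMT1 was the highest column in 650 events and the lowest in 923. It stood at least 0.1 beyond the nearest other column in 46 events (0.444%), 20 above (0.193%) and 26 below (0.251%). With 7 columns and no replicates, any single column can be the outermost one, and no test of this is given.

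**Figure D3:**
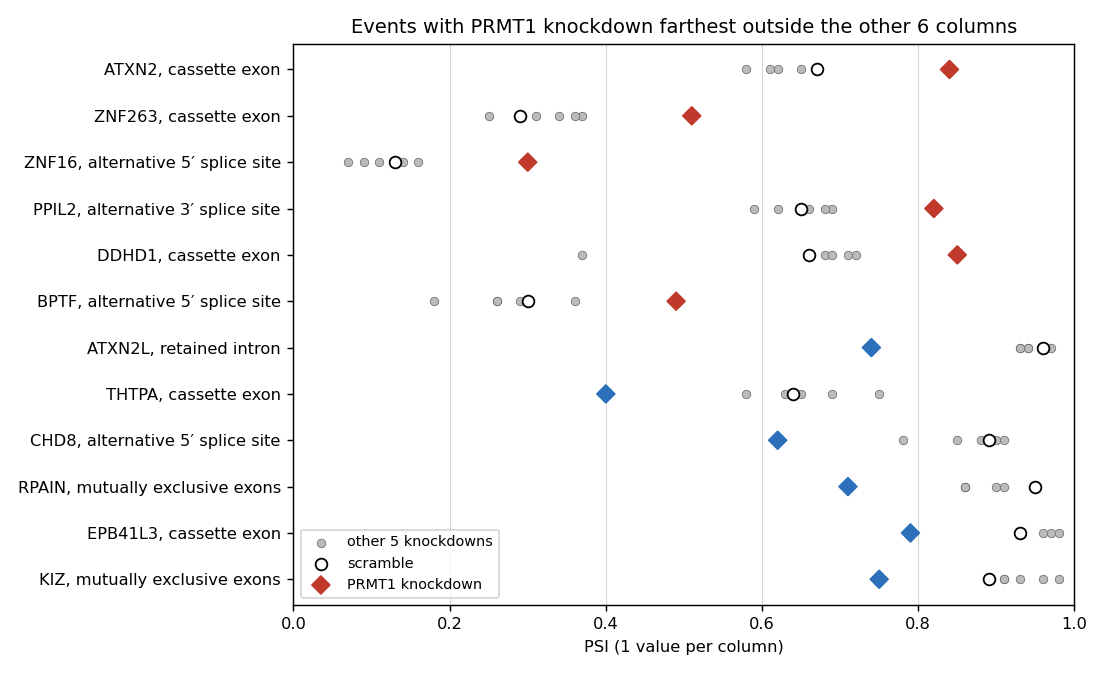
PSI in each of the 7 columns (x axis, 1 value per column) for the 6 events with PRMT1 knockdown farthest above and the 6 farthest below the other 6 columns, 1 per gene. Diamonds are PRMT1 knockdown (red above, blue below), open circles scramble and grey points the other 5 knockdowns. ATXN2 at 0.84 and ATXN2L at 0.74 stand farthest out.

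ATXN2, an RNA-binding protein of stress granules that is expanded by polyglutamine in a spinocerebellar ataxia, had the event farthest above. Its 169-base exon (sequence above) had PSI 0.67 in scramble, 0.84 in PRMT1 knockdown and, from PRMT3 to PRMT7 knockdown in order, 0.58, 0.65, 0.67, 0.61 and 0.62. The other 6 columns spanned 0.58 to 0.67, and the authors' deposited table gave 0.048. Another ATXN2 exon, of 210 bases, was lower, at 0.93 in scramble and 0.77 in PRMT1 knockdown, and PRMT4 was close at 0.78. For this second exon the authors' deposited table gave only -0.021.

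ATXN2L, the paralog of ATXN2 and itself a PRMT1 substrate, had the event farthest below, an intron of 625 bases (chr16:28847444-28848068). Its PSI was 0.96 in scramble, 0.74 in PRMT1 knockdown and, from PRMT3 to PRMT7 knockdown in order, 0.97, 0.93, 0.94, 0.94 and 0.93. The PRMT1 column alone was below 0.93, while the authors' deposited table gave a smaller difference of -0.041. With other splice sites at its ends, the same stretch was listed as 4 further intron events, all lower in PRMT1 knockdown: 0.71 against 0.52, 0.87 against 0.68, 0.87 against 0.75 and 0.89 against 0.76. An alternative 5′ splice site that starts at the same base was at 0.35 and 0.22. These events share reads and are not separate observations. ATXN2L had 7 differing events among 20 measured, 6 lower and 1 higher.

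THTPA, the phosphatase that hydrolyses thiamine triphosphate, had 7 differing events among 13 measured, and all 7 were lower. Its 562-base exon (chr14:24025952-24026513) had PSI 0.64 in scramble, 0.40 in PRMT1 knockdown and, from PRMT3 to PRMT7 knockdown in order, 0.75, 0.58, 0.69, 0.63 and 0.65. A shorter form of this exon, of 292 bases, was at 0.38 and 0.16, with 0.28 to 0.42 in the others. The authors' deposited table gave -0.211 for the longer form of the THTPA exon and -0.232 for the shorter one. The THTPA events overlap and share reads.

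CHD8, a chromodomain helicase, had an alternative 5′ splice site (chr14:21898960-21899969) at PSI 0.89 in scramble, 0.62 in PRMT1 knockdown and, from PRMT3 to PRMT7 knockdown in order, 0.91, 0.85, 0.88, 0.78 and 0.90. The authors' deposited table gave -0.048. BPTF, the largest subunit of the NURF chromatin remodelling complex, had an alternative 5′ splice site at 0.30 in scramble, 0.49 in PRMT1 knockdown and, from PRMT3 to PRMT7 knockdown in order, 0.18, 0.26, 0.26, 0.29 and 0.36. The BPTF difference in the authors' deposited table was 0.119. MBD1, which binds methylated CpG, included its 138-base exon at 0.79 in scramble, 0.61 in PRMT1 knockdown and 0.73 to 0.90 in the others, with -0.06 in the authors' deposited table.

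DDHD1, a phospholipase of phosphatidic acid, included its 84-base exon at PSI 0.66 in scramble, 0.85 in PRMT1 knockdown and, from PRMT3 to PRMT7 knockdown in order, 0.37, 0.71, 0.68, 0.72 and 0.69. PRMT1 was the highest and PRMT3 the lowest by a wide margin, and the authors' deposited table gave 0.12 for PRMT1. EPB41L3, an EPB41 relative known to bind PRMT3, had a 117-base exon at 0.93 in scramble, 0.79 in PRMT1 knockdown and 0.93 to 0.98 in the others. The authors' deposited table gave -0.059 for EPB41L3. MTMR3, a phosphoinositide phosphatase, included its 27-base microexon at 0.10 in scramble, 0.22 in PRMT1 knockdown and 0.03 to 0.09 in the others, with 0.075 in the authors' deposited table.

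Further outermost events were in ZNF263, a zinc finger protein (127-base exon, 0.29 in scramble, 0.51 in PRMT1 knockdown, 0.25 to 0.37 in the others), and in PPIL2, a prolyl isomerase of the cyclophilin family. The PPIL2 event was an alternative 3′ splice site at 0.65 and 0.82, with 0.59 to 0.69 in the others. PRC1, which bundles microtubules at the spindle midzone, had a 235-base exon at 0.93 and 0.83, with 0.94 to 0.97 in the others, but the authors' deposited table gave only -0.008. CDK5RAP3 had an intron at 0.85 and 0.72, with 0.82 to 0.87 in the others and -0.092 in the authors' deposited table. PRC1 and CDK5RAP3 were named after their values were seen.

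Gene lists were read against the 7.40% of all events. By genes, 668 of all 5006 gene symbols (13.3%) had a differing event. Of the 16 lists, 6 had a larger share of events. The list of RGG and arginine-methylated RNA-binding proteins had 10 differing events of 78 (12.8%), 2 higher and 8 lower, with a median difference of 0 as over all events. All of them lay in 3 of 27 measured genes: ATXN2L with 7, ATXN2 with 2 and EWSR1, an RNA-binding protein, with 1 intron at PSI 0.88 in scramble and 0.73 in PRMT1 knockdown. The share of this list thus rests on overlapping events of ATXN2L. By genes, the list had 11.1%, below the 13.3% of all gene symbols. Of the 16 retained introns of the list, 6 were lower and 0 higher, beside 8.59% lower and 1.82% higher over all retained introns. All 6 were overlapping events of ATXN2L or the EWSR1 intron.

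The lists of splicing factors had smaller shares of events than the 7.40% of all events. By genes with a differing event, 2 of these lists lay above the 13.3% of all gene symbols. These were hnRNP proteins, with 4 of 21 measured genes, and SR proteins and their kinases, with 5 of 29. The core spliceosome and Sm list had none. The hnRNP list had 4 of 83 differing events (4.82%), 2 in each direction. Its largest was a 169-base exon of HNRNPD, which encodes the mRNA decay factor AUF1, at PSI 1.0 in scramble, 0.73 in PRMT1 knockdown and 0.66 in PRMT4, against 0.99 to 1.0 in PRMT3, PRMT5, PRMT6 and PRMT7. The authors' deposited table gave -0.001 for this HNRNPD exon. SR proteins and their kinases had 6 of 107 (5.61%), 2 higher and 4 lower. SRSF10, an SR protein that can repress splicing, included a 51-base exon at 0.68 in scramble, 0.84 in PRMT1 knockdown and 0.71 to 0.78 in the others, where the authors' deposited table gave 0.007. SRPK1, an SR protein kinase, had a 214-base exon at 0.69 and 0.53, where the authors' deposited table gave 0.002. The core spliceosome and Sm list had 0 differing events of 50 in 32 genes, with differences from -0.06 to 0.07.

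The list of PRMT genes and methylation cofactors had 3 differing events of 32 (9.38%), near the 7.40% of all events. PRMT2, a relative of PRMT1 that also places asymmetric marks, included a 172-base exon at PSI 0.95 in scramble, 0.80 in PRMT1 knockdown and, from PRMT3 to PRMT7 knockdown in order, 0.93, 0.93, 0.96, 0.81 and 0.87. PRMT1 and PRMT6 knockdown were the lowest columns, and the authors' deposited table gave -0.073 for PRMT1. The 54-base exon of SMN1 and SMN2, whose skipping limits functional SMN protein, was at 0.52 and 0.64, with 0.34 to 0.60 in the others. For this exon the authors' deposited table gave only 0.029. Its copy at the second locus was at 0.74 and 0.82. SMN1 and SMN2 are near-identical, so reads of both copies cannot be told apart with certainty. MAT2B, a regulatory subunit of the enzyme that makes S-adenosylmethionine, had a mutually exclusive exon event at 0.84 and 0.95. The events of PRMT5 and PRMT9 differed by at most 0.02 between scramble and PRMT1 knockdown, and PRMT2 had 2 further events with differences of -0.02 and 0.05.

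Enzymes and complexes of histone and DNA methylation had 7 differing events of 85 (8.24%), 5 higher and 2 lower. The 5 higher events were among its 44 cassette exons, and no cassette exon of the list was lower. Over all cassette exons 2.99% were higher and 3.40% lower. KDM6A, the histone H3 lysine 27 demethylase UTX, included its 102-base exon at PSI 0.29 in scramble, 0.60 in PRMT1 knockdown and, from PRMT3 to PRMT7 knockdown in order, 0.43, 0.42, 0.46, 0.49 and 0.50. Scramble was the lowest and PRMT1 the highest column. KDM5A, a histone H3 lysine 4 demethylase, had an 82-base exon at 0.35 and 0.54, with 0.26 to 0.48 in the others and 0.074 in the authors' deposited table. EHMT1, a histone H3 lysine 9 methyltransferase, had a 64-base exon at 0.72 and 0.84, and KMT2D, a lysine 4 methyltransferase, a 48-base exon at 0.15 and 0.27. MEN1, the scaffold menin of such complexes, had an exon at 0.59 and 0.85, but the authors' deposited table gave -0.002. The lower events were alternative 5′ splice sites of RBBP5 (0.89 and 0.56) and DNMT1 (0.24 and 0.14).

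Chromatin remodelling and acetylation genes had 12 differing events of 125 (9.60%), 3 higher and 9 lower, in 11 of 47 genes. Besides CHD8, BPTF and MBD1 they included CHD6, with a 56-base exon at PSI 0.94 in scramble and 0.78 in PRMT1 knockdown, and 0.48 to 0.85 in the others. SMARCC2, a core subunit of BAF complexes, had an alternative 5′ splice site at 0.92 and 0.81, with 0.54 to 0.84 in the others, and the authors' deposited table gave -0.12. In CHD6 and SMARCC2, PRMT3 was the lowest column.

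The cytoskeleton and cell adhesion list had the largest share, 22 of 169 (13.0%), 11 higher and 11 lower, in 19 of 58 genes. Relative to the average of the other knockdowns it had 9, 7 higher and 2 lower. ITGA6, the laminin receptor subunit integrin alpha 6, had a 130-base exon at PSI 0.22 in scramble, 0.43 in PRMT1 knockdown and, from PRMT3 to PRMT7 knockdown in order, 0.34, 0.42, 0.25, 0.32 and 0.40. Scramble was the lowest column, PRMT4 was 0.01 below PRMT1, and the authors' deposited table gave 0.174. KIF13A, a kinesin of endosome transport, was lower at a 105-base exon, 0.57 in scramble and 0.37 in PRMT1 knockdown, with 0.23 to 0.40 in the others. CLIP1, a protein of growing microtubule ends, was at 0.34 and 0.14, with 0.04 to 0.20 in the others. DSP, the desmosome protein desmoplakin, had its alternative 5′ splice site higher at 0.83 and 0.94, with 0.72 to 0.85 in the others. NUMB, an inhibitor of Notch signalling, was at 0.46 and 0.68 with 0.51 to 0.95 in the others, and here the authors' deposited table gave -0.02. ITGA6, KIF13A, CLIP1 and DSP were named after their values were seen.

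Mitosis and cell cycle genes had 17 of 188 (9.04%), 5 higher and 12 lower, and against the average of the other knockdowns 0 higher and 6 lower. AURKB, the kinase of the chromosomal passenger complex, had an intron at PSI 0.51 in scramble and 0.27 in PRMT1 knockdown, with 0.21 to 0.35 in the others. NIN, the centrosome protein ninein, had its 2139-base exon at 0.35 and 0.54, with 0.29 to 0.69 in the others, and the authors' deposited table gave 0.142. Scramble was the highest column for AURKB, while for NIN the PRMT1 column lay inside the range of the others.

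The remaining lists had smaller shares of events than all events by the same rule. By genes with a differing event, apoptosis (17.9%) and DNA damage response and repair (14.5%) were the ones among these remaining lists above the 13.3% of all gene symbols. DNA damage response and repair had 8 of 172 (4 higher, 4 lower), ribosomal proteins 6 of 183 (1 and 5), translation factors 4 of 129 (2 and 2), mRNA 3′ end processing and decay 4 of 79 (2 and 2), apoptosis 6 of 86 (3 and 3), tissue and developmental splicing regulators 2 of 50 (2 and 0) and signalling genes 3 of 46 (1 and 2). RPS2, a protein of the small ribosomal subunit with many near-identical pseudogenes, had a 713-base segment at PSI 0.82 in scramble and 0.46 in PRMT1 knockdown. The authors' deposited table gave -0.011 for the RPS2 segment. BCL2L1, an apoptosis regulator, had an alternative 3′ splice site 18 bases apart at 0.28 and 0.11, with 0.08 to 0.37 in the others. CNOT4, a ubiquitin ligase that associates with the CCR4-NOT deadenylase, had a 213-base exon at 0.37 and 0.27, below 0.37 to 0.62 in the others.

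**Figure D4:**
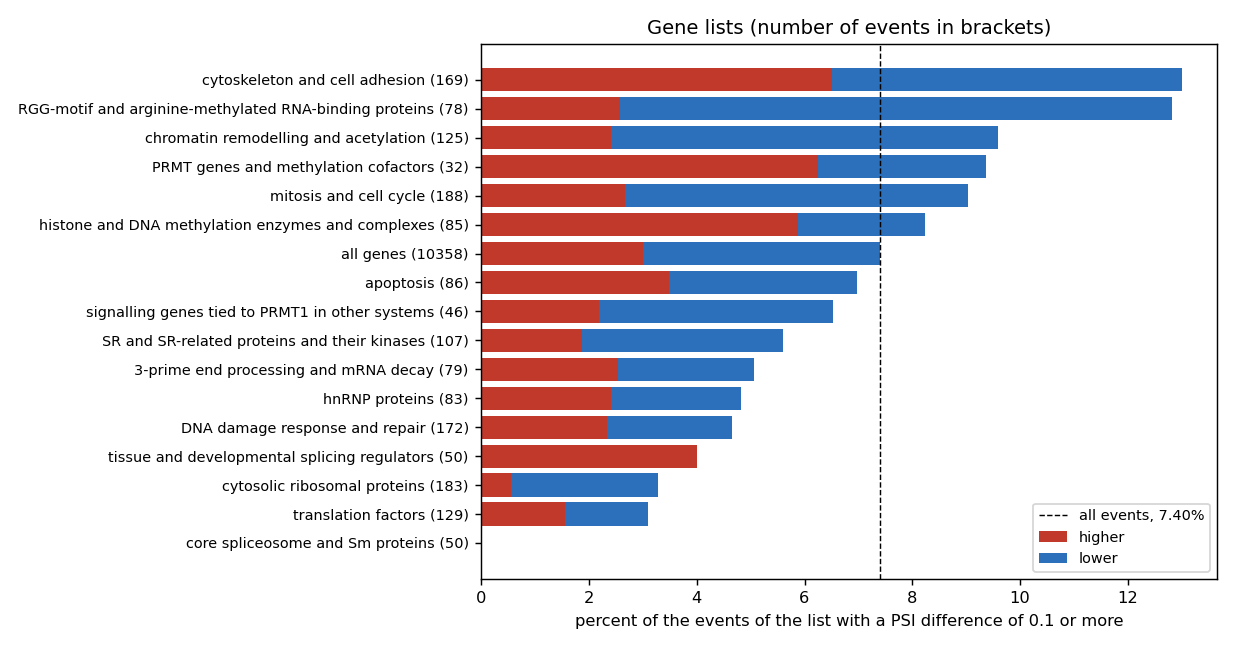
Percent of the events of each gene list with a PSI difference of at least 0.1 between PRMT1 knockdown and scramble, split into higher (red) and lower (blue), with the number of events in brackets. The dashed line is the 7.40% of all events, and the cytoskeleton list (13.0%) and the RGG list (12.8%) lie farthest to its right.

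Tandem acceptors, alternative 3′ splice sites 3 or 4 bases apart, differed in 12 of 145 cases, 7 higher and 5 lower. That is 8.28%, near the 7.40% of all events. In the lines below the capitals mark the 3 bases that are included only with the upstream site, and they read CAG in each of these genes.
ATXN2L alternative 3′ splice site, chr16:28846867-28846869, plus strand: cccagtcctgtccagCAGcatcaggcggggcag
CHD9 alternative 3′ splice site, chr16:53340146-53340148, plus strand: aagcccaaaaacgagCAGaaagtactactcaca
MAP9 alternative 3′ splice site, chr4:156289962-156289964, minus strand: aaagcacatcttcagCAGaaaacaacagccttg
ATXN2L used the upstream site at PSI 0.10 in scramble and 0.25 in PRMT1 knockdown, and all the other knockdowns were also above scramble, at 0.21 to 0.31. For the ATXN2L site the authors' deposited table gave only 0.021. CHD9, a chromodomain helicase, was at 0.79 and 0.61, with 0.53 to 0.80 in the others, and the authors' deposited table gave -0.09. MAP9, a microtubule-associated protein of the spindle, was at 0.42 in scramble, 0.53 in PRMT1 knockdown and, from PRMT3 to PRMT7 knockdown in order, 0.38, 0.39, 0.33, 0.41 and 0.28. MAP9 was thus highest in the PRMT1 column, and the authors' deposited table gave 0.053. PTBP2, the neuronal relative of PTBP1, had a tandem acceptor at 0.39 and 0.51, inside the 0.40 to 0.66 of the others. MAP9 was chosen for display after its values were seen.

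Differing events were mostly spread over single genes: 564 gene symbols had 1, 85 had 2, and 19 had 3 or more. Besides ATXN2L and THTPA, BCS1L and RPAIN had 7 each. BCS1L, an assembly factor of respiratory complex III, had 6 higher and 1 lower, and 4 of the 6 were mutually exclusive pairs. Its untranslated 115-base exon was at PSI 0.54 in scramble and 0.34 in PRMT1 knockdown, with 0.34 to 0.39 in the others and -0.116 in the authors' deposited table. RPAIN, which carries replication protein A into the nucleus, had 1 higher and 6 lower, and 3 of the 6 were mutually exclusive pairs. Its 141-base exon was at 0.94 and 0.73, with 0.82 to 0.94 in the others, and the authors' deposited table gave -0.04. Its 112-base exon was higher here, at 0.04 and 0.22, but lower in the authors' deposited table, at -0.111. CKMT1B, a mitochondrial creatine kinase with a near-identical copy, had 4 overlapping exon events, all lower, such as 0.54 in scramble and 0.37 in PRMT1 knockdown. For that exon the authors' deposited table gave only -0.012, and for another of them -0.008.

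The authors' deposited table of rMATS differences was set beside the MISO columns as a check. It comes from the same libraries, so it checks the calculation and not the biology. Its sign was read from how it runs against the MISO differences, so the side that all its values take together is not itself checked. Of 10358 events 6738 had a match by splice junctions, and the correlation of both differences across these events was 0.438. Events are not independent replicates, and no p is given. Of 491 matched differing events, 422 (85.9%) lay on the same side of 0: 301 of 351 cassette exons, 72 of 80 retained introns, 22 of 30 alternative 3′ and 27 of 30 alternative 5′ splice sites. For the alternative 3′ splice sites this was 14 of 15 higher but only 8 of 15 lower events. In the authors' deposited table the sizes were smaller, with a median of 0.042 for events higher here and -0.046 for events lower here. Both tables passed 0.1 in the same direction in 105 events and in opposite directions in 7.

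Over its own events the authors' deposited table had 12374 of 91420 past 0.1 (13.5%), 5443 higher (5.95%) and 6931 lower (7.58%). Of the 4404 retained introns there, 718 passed (16.3%), 487 lower (11.1%) and 231 higher (5.25%), which is 67.8% lower. For cassette exons in the authors' deposited table the direction depended on the set: among events with a value for PRMT1 9872 passed (13.1%), 5408 lower (7.18%) and 4464 higher (5.93%), but among those with a value for all 6 targets 5765 passed (12.2%), 2558 lower (5.42%) and 3207 higher (6.79%). No direction is therefore given for cassette exons as a whole.

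**Figure D5:**
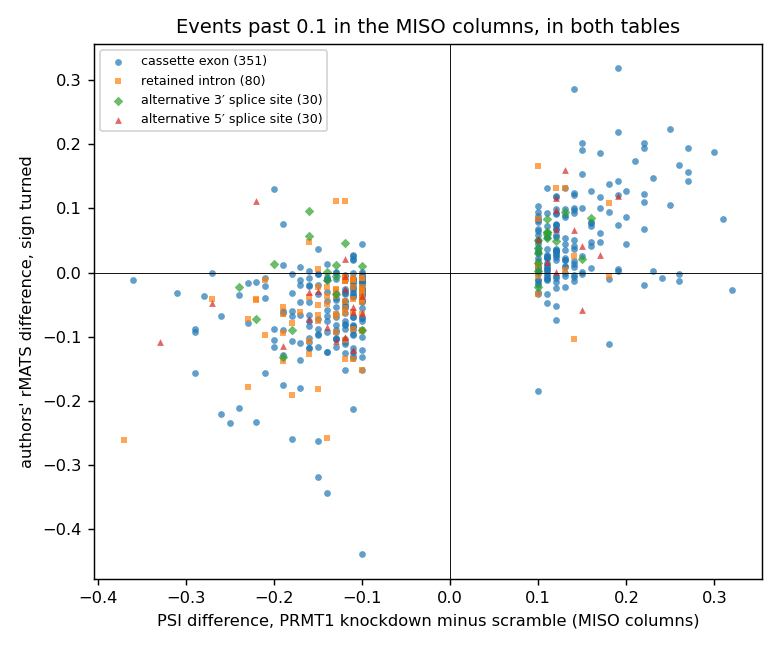
Differing events matched in both tables: PSI difference from the MISO columns (x axis, PRMT1 knockdown minus scramble) and the authors' rMATS difference with its sign turned (y axis), with the number of events per type. Of 491 events 422 lie in the lower left or upper right quadrant, and most have a smaller rMATS difference.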

How the data were processed

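HEK293T lines that carry a hairpin gave poly(A)-selected, stranded RNA-seq libraries, per the labels' protocols. Cutadapt 1.18, HISAT and build GRCh37 are named in the submitters' processing notes; the sources used here do not give settings. Deposited by the authors were a MISO table with PSI as a fraction (0 to 1) and an rMATS table of PSI differences, treated as a score. Neither holds depth or replicates.

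From these, PRMT1 minus Control was computed per event. The deposited rMATS values ran opposite to it, so their sign was turned. Differing means at least 0.1 PSI. Named were, per type and direction, the 4 largest events, 1 per gene; per list up to 4 genes; the PRMT genes; the 6 events per direction farthest beyond the other columns; and genes with 3 or more differing events. The text gives a part of these. Chosen after their values were seen were PINK1, PIDD1, VIM, NDEL1, EPB41, MAPK6, ARHGAP44, MTRF1, ZSCAN21, MTMR3, PRC1, CDK5RAP3, EHMT1, KMT2D, DNMT1, CHD6, SMARCC2, ITGA6, KIF13A, CLIP1, DSP, MAP9 and the genes of the closing section. Members, lists and rules were chosen with earlier results of these data known. Symbols are those of the table, and 1118 events carry more than 1. Sequences came from GENCODE 29. Alternatives are given in the closing section. The difference step was tested on simulated data. The software was Python 3.11.15 with scipy 1.17.1, pandas 2.3.3, matplotlib 3.10.9 and numpy 2.4.6. No per-sample column was left unused.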

Additional observations from a re-analysis of the deposited data

How the results depend on the processing

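No paired analysis was possible because the deposited columns carry no replicates; leaving out a hairpin was not possible for the same reason. Beside the 767 differing events, 111 events differed by at least 0.2 PSI and 2212 by at least 0.05. There were 381 against the average of the other 5 knockdowns, 358 with 1 event per gene, and 12374 in the authors' rMATS table, or 7594 there with a value for all 6 targets, a set chosen after seeing the data. The share lower among retained introns, 82.5%, was 93.3% at 0.2 PSI, 67.3% against the other knockdowns, 67.8% in rMATS and 66.2% in its events with all 6 targets. Other moves were 90.0% at 0.2 PSI and 39.5% against the other knockdowns for alternative 3′ splice sites, 88.2% at 0.2 PSI for mutually exclusive exons (no direction is read, since the counted exon is not settled), and 44.4% in rMATS events with all 6 targets for cassette exons. The mean PSI filter, the logit scale, events with values in both columns only and events with 1 symbol moved the total to between 722 and 919. For 6 lists the share was above that of all events, 7 at 0.2 PSI and 6 against the other knockdowns, but the lists differed. Against the other knockdowns histone and DNA methylation (3 of 85) and mitosis (6 of 188) lay below the 3.68% of all events, and SR proteins (5 of 107) and apoptosis (6 of 86) lay above. At 0.2 PSI the PRMT, chromatin and mitosis lists lay below, and the hnRNP, 3′ end, ribosomal and signalling lists above, on at most 3 events each. By rMATS the sign turned for BOD1 (-0.027), HMGN2 (-0.006), SRPK1 (0.002), QKI (-0.103), MEN1 (-0.002), NUMB (-0.02), CFLAR (-0.005) and AKT2 (-0.033). Against the other knockdowns it turned for ACAA1 (0.002), ATP5PF (-0.034), CCNC (-0.036), HNRNPC (-0.004), PTBP2 (-0.016), SRSF2 (-0.026), RECQL (0.002), NUMB (-0.018) and AKT2 (-0.008). The cause was not tested. Unknown depth limits every single value.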

Other observations

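Another 1063 events had a PSI in scramble and PRMT1 knockdown but lacked it in another column. Of these 152 differed by at least 0.1 (14.3%, against 7.40% of the complete events), 69 higher and 83 lower. They include 17 retained introns lower and 5 higher. Why the shares differ was not tested, and read depth is unknown. HYAL2, a hyaluronidase, had an alternative 5′ splice site at PSI 0.21 in scramble and 0.67 in PRMT1 knockdown, and PRMT4 was higher still at 0.97. ZC3H11A, an mRNA export factor, had an intron of 1023 bases at 0.86 and 0.46, with 0.67 to 0.82 in the 3 other knockdowns that had a value. TASOR, a subunit of the HUSH silencing complex, had a 60-base exon at 0.61 and 0.92, with 0.77 to 0.80 in the 4 others, while the authors' deposited table gave 0.002.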
